A study of Drosophila melanogaster with 8 samples.

Results

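This comparison covers Drosophila melanogaster embryos at stage 5, the cellular blastoderm, with and without a balancer copy of chromosome 3 beside the zen[7] allele. The members are the 4 stage 5 libraries of the 8 in the series, chosen by the genotype and stage in their labels: 2 of zen[7] homozygotes and 2 of zen[7]/TM3, ftz-lacZ heterozygotes, the study's reference. The other 4 libraries hold the same genotypes at stage 6-7, the gastrula, and share one estimate of the spread with these. By their labels all embryos carry at least 1 zen[7] chromosome, and no wild-type group was analysed here. TM3 is a multiply inverted balancer of chromosome 3, here with a lacZ transgene under ftz control, so the genotypes differ along that whole chromosome and not at zen alone. Each library is RNA of a pool of staged whole embryos (N = 100 in the labels). Homozygotes were recognised by PCR from a missing lacZ band, a test that does not separate embryos with 1 TM3 from embryos with 2, which would carry no zen[7]. Whether the heterozygous pools hold such embryos cannot be told from the labels. All 17468 genes in the files were used, of which 9360 had enough reads to be tested, and levels are in CPM, the reads of a gene relative to the TMM-scaled size of its library. Paired values are given for replicate 1 and then replicate 2, differences are log2 of homozygous over heterozygous, and a gene is called where its p in edgeR's quasi-likelihood test, after Benjamini-Hochberg adjustment, was under 0.05.

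The gene zen encodes a homeodomain transcription factor. In the early fly embryo it is first expressed over the dorsal side and then, under peak signalling by the BMP ligand Dpp, in a narrow band along the dorsal midline. These cells become the amnioserosa, an extraembryonic epithelium that later takes part in germ-band retraction and dorsal closure. Several genes switched on in the band, among them peb, ush, tup, C15 and the Doc genes, encode transcription factors or cofactors, and others such as Ance and egr encode an enzyme and a signal.

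Gene counts summed to 29669956 and 35832231 in the homozygous libraries and to 36134144 and 37770105 in the heterozygous ones. Homozygous replicate 1 stood apart: on the first principal component of all libraries (76% of the variance, with the stages at its ends) its score was -56.2, against -42.1 to -45.1 for the remaining stage 5 libraries, so it was the farthest from stage 6-7. The homozygous replicates differed by a median of 0.215 on the log2 scale and the heterozygous ones by 0.126. Markers of cellularization differed in level, and the 5 tested ones summed to 4000 and 2940 CPM in homozygotes and 3640 and 3130 CPM in heterozygotes. The gene slam, which directs membrane growth at the furrows, stood at 2372 and 1669 CPM in homozygotes and 2256 and 1892 CPM in heterozygotes. In contrast nullo stood at 4.83 and 3.96 against 10.7 and 7.78 CPM. Another marker, Sry-alpha, held 0 counts in every library, and whether its reads were lost in counting was not tested. Markers of adult ovary and fat body were nearly absent, with 3 of 10 passing the filter at a summed 1.65 to 2.53 CPM in homozygotes and 2.12 to 2.13 CPM in heterozygotes, and with Cp36 and Cp38 at 0 counts. Of 8 tested pole cell genes none was called, with 2 at an unadjusted p under 0.05 (12.3% of all tested genes were), none by DESeq2, and 291 to 313 CPM in sum in homozygotes against 311 to 326 CPM.

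RNA of zen itself (arm 3R) stood at 154 and 134 CPM in homozygotes and at 112 and 106 CPM in heterozygotes. The homozygous libraries were the higher ones, without overlap, by 0.40 on the log2 scale (SE 0.137), but the difference did not pass the test (adjusted p = 0.234). Its neighbour zen2, a homeobox gene of the same complex, stood at 6.47 and 7.20 against 5.51 and 6.20 CPM (adjusted p = 0.681). The sources used here do not say what zen[7] does to the transcript, and these levels check no label.

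At stage 5, 152 of the 9360 tested genes were called. In homozygotes 27 of them were higher and 125 lower. That is 1.62% of the tested genes, 0.288% in the higher and 1.34% in the lower direction, and these shares are the background for the counts below. Changes were moderate: among lower genes the median absolute log2 was 0.84 and 48 of 125 fell at least 2-fold, and among higher genes the median was 0.95 and 13 of 27 rose at least 2-fold. In every called gene both homozygous libraries lay outside the range of the heterozygous ones, but so they did in 42.4% of all tested genes. The median of all tested genes was 0.005.

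**Figure D1:**
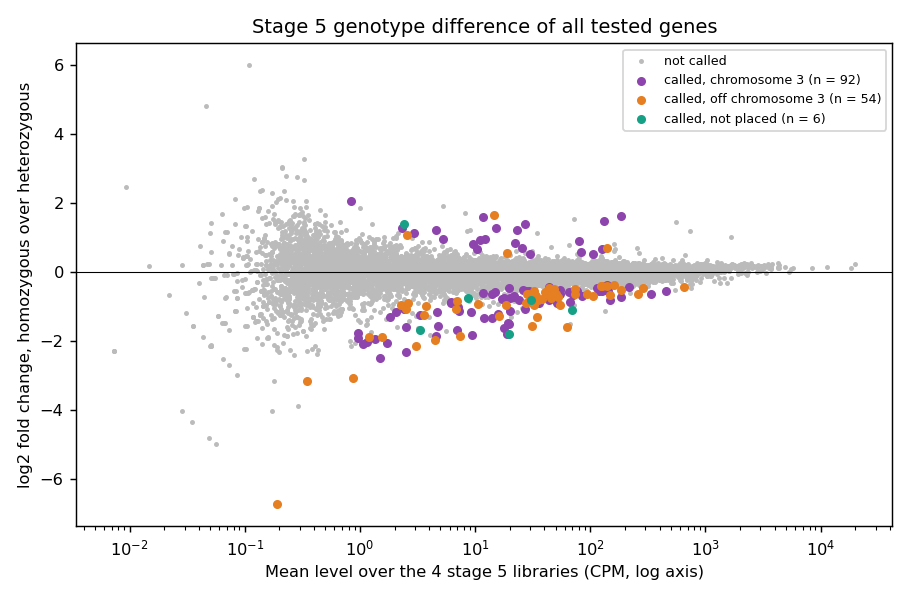
Each point is 1 of the 9360 tested genes, placed by its mean level over the 4 stage 5 libraries (CPM, log axis) and its log2 fold change of homozygous over heterozygous embryos. Coloured points are the 152 called genes, split by chromosome, and most lie below 0 (125 lower, 27 higher).

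The counts depended on single libraries. Without homozygous replicate 1, the library that stood apart, 149 genes were called (36 higher and 113 lower), 101 of them shared with the 152. Without homozygous replicate 2 there were 805, 141 of them shared, and without heterozygous replicate 1 or replicate 2 there were 66 and 67, with 57 and 62 shared. Of the 152 genes, 36 were called in all of these fits, 5 higher and 31 lower. The 5 were fok, Ac78C, asRNA:CR44095, CG8066 and nAChRbeta2, and the 31 included all 7 amnioserosa genes described next.

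Genes of the dorsal midline were lower in homozygotes. Of the 14 members of the amnioserosa and peak Dpp target list, all tested, 7 fell, none rose and 7 did not pass, beside the 1.34% of tested genes that fell. The list's median was -0.82. Of the 6 members off chromosome 3, where both genotypes should carry the same chromosomes, 4 fell (ush, peb, tup and Ance), and of the 8 on chromosome 3, 3 fell (C15, Doc2 and pnr). Whole embryos were sequenced, so fewer cells of the dorsal midline and less RNA per cell cannot be told apart.

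The gene ush (FBgn0003963, arm 2L, 476220 to 540560 on BDGP6.54) encodes a Friend-of-GATA cofactor that binds Pannier. It stood at 32.1 and 29.9 CPM in homozygotes and at 85.6 and 102 CPM in heterozygotes. Both homozygous libraries were at a similar level far below both heterozygous ones, a log2 change of -1.60 (SE 0.111, adjusted p = 3.54e-06). On the X, peb (FBgn0003053, also called hindsight), which encodes a zinc-finger protein, stood at 16.6 and 15 against 42.1 and 51.8 CPM, a change of -1.57 (adjusted p = 8.58e-05). The LIM-homeodomain gene tup (FBgn0003896, arm 2L) stood at 19.7 CPM in both homozygous libraries and at 42.8 and 54.4 CPM in the heterozygous ones, a change of -1.30 (adjusted p = 0.000153). For these 3 genes the homozygous replicates were closer to each other than the heterozygous ones.

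C15, a homeobox gene of the Tlx class, was scarce at this stage. It stood at 1.04 and 0.650 CPM in homozygotes and 4.03 and 4.23 CPM in heterozygotes, and its change of -2.31 (SE 0.295, adjusted p = 0.000998) was the deepest of the list. Among the T-box genes of the Dorsocross cluster, Doc2 fell from 47.7 and 45.3 to 24.3 and 25.1 CPM (log2 -0.91, adjusted p = 0.000703). Its neighbours had smaller differences that did not pass. Doc3 stood at 48.3 and 48.4 against 66.3 and 64.1 CPM (adjusted p = 0.0813), and Doc1 at 56.7 and 53.4 against 69.1 and 70.2 CPM (adjusted p = 0.125). In both, the homozygous libraries lay below the heterozygous ones without overlap, and DESeq2 called both (adjusted p = 0.0141 for Doc3 and 0.0385 for Doc1).

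Ance, an angiotensin-converting enzyme homologue and one of the first described amnioserosa targets of zen, stood at 39.1 and 39.9 CPM in homozygotes and 65.5 and 66.1 CPM in heterozygotes. Replicates differed little in either genotype, and the change was -0.74 (SE 0.0945, adjusted p = 0.00102). The GATA factor gene pnr, expressed more broadly in the dorsal ectoderm, stood at 7.21 and 12.9 against 29.7 and 27.4 CPM, a change of -1.49 (adjusted p = 0.00342) with homozygous replicate 1 the lower. Dtg stood at 479 and 408 against 522 and 600 CPM and did not pass (log2 -0.34, adjusted p = 0.124). Its log2 was -0.46 without homozygous replicate 1 and -0.28 without replicate 2. Kr, a gap gene that is also expressed in the amnioserosa, stood at 206 and 198 against 202 and 211 CPM (adjusted p = 0.91), and the genotypes overlapped.

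The TNF ligand gene egr (arm 2R) differed between the homozygous replicates themselves. It stood at 113 and 54.9 CPM in homozygotes and 172 and 194 CPM in heterozygotes, so both homozygous libraries were low and replicate 2 was the lowest. The change of -1.13 (SE 0.321) did not pass (adjusted p = 0.241). It was -1.74 without homozygous replicate 1 and -0.75 without replicate 2. Those fits leave 1 homozygous library, so they hold none of the spread between the homozygous replicates. Homozygous replicate 2 was also low in heat shock genes: Hsp68 stood at 61.1 and 8.09 CPM in homozygotes against 95.5 and 102 CPM, and Hsp70Ab at 13 and 4.90 against 16.9 and 18 CPM. Across all tested genes, 5 were at least 2-fold lower in homozygous replicate 2 than in each other stage 5 library and at 5 CPM or more there, namely egr, csw, Hsp68, Hsp70Aa and Hsp70Ab. The part of this library in the level of egr was not tested beyond these values.

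**Figure D2:**
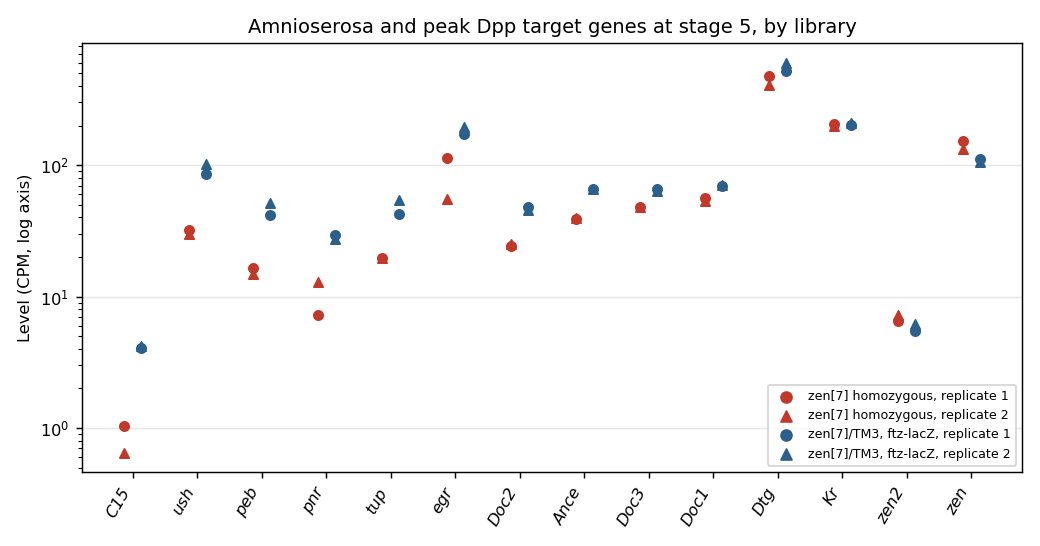
Level of the 14 amnioserosa and peak Dpp target genes in each stage 5 library (CPM, log axis), with homozygotes in red and heterozygotes in blue, and circles and triangles for replicates 1 and 2. Genes run from the deepest fall (C15, log2 -2.31) to zen (0.40); from C15 to Dtg the red points lie below the blue ones.

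In the Dpp pathway itself few members were called. Of 14 ligands and extracellular modulators, 1 fell and none rose (median -0.10), while 6 were at an unadjusted p under 0.05 (background 12.3%) and 6 had both homozygous libraries below both heterozygous ones (background 21.2%). The ligand genes did not pass: dpp stood at 78.0 and 81.3 against 81.1 and 87.4 CPM (adjusted p = 0.781), and scw, its partner, at 85.2 and 65.5 against 101 and 88.1 CPM (adjusted p = 0.589). The member that fell was tok, a metalloprotease gene of the Tolloid family, which stood at 101 and 103 against 145 and 154 CPM (log2 -0.56, adjusted p = 0.00367). This call was lost without heterozygous replicate 2 (adjusted p = 0.0539).

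Other regulators outside the cell had differences that did not pass. The BMP-binding gene tsg stood at 31.5 and 22.9 against 38.7 and 39.1 CPM (log2 -0.52, adjusted p = 0.1). Its log2 was -0.77 without homozygous replicate 1 and -0.35 without replicate 2. The gene tld, the protease that cleaves the antagonist Sog, stood at 224 and 237 against 181 and 197 CPM (log2 0.28, adjusted p = 0.198). A relative of tsg that was not on the list, srw, rose from 20.8 and 18.4 to 33.1 and 29.5 CPM (log2 0.68, adjusted p = 0.0145). It lies on arm 3L, and its call was lost without homozygous replicate 1 and without either heterozygous library (adjusted p = 0.0664, 0.0702 and 0.248). The follistatin gene Fs, named after its values were seen, fell from 1.77 and 1.99 to 0.335 and 0.650 CPM (log2 -1.89, adjusted p = 0.0136). Its call was lost without homozygous replicate 1 (adjusted p = 0.083) and without heterozygous replicate 1 or 2 (0.0566 and 0.0985).

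Of 11 tested receptors and transducers, 1 fell and none rose (median -0.14), with 3 at an unadjusted p under 0.05 and 4 with the homozygous libraries below without overlap. The log2 values of all 11 were negative. It was tkv, the type I receptor, at 75.9 and 84.3 CPM in homozygotes against 132 and 129 CPM in heterozygotes (log2 -0.70, SE 0.134, adjusted p = 0.0205). The call of tkv did not hold without homozygous replicate 1 (adjusted p = 0.177), heterozygous replicate 1 (0.129) or heterozygous replicate 2 (0.077). At stage 6-7 its log2 difference was 0.04. The other type I receptor gene, sax, stood at 56.2 and 55.8 against 69.4 and 65.0 CPM (adjusted p = 0.23), and put, Mad and brk had differences of -0.04 to -0.14 that did not pass.

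Of the 6 GATA factors and their cofactor, 3 fell, and the list's median was -1.46. Beside ush and pnr this was grn (FBgn0001138, arm 3R), which stood at 8.66 and 11.6 against 28.3 and 30.4 CPM (log2 -1.53, adjusted p = 0.000137). The other members did not pass. Among them srp, the GATA factor of endoderm and blood cells, stood at 159 and 195 against 164 and 221 CPM with overlapping genotypes, and GATAd at 25.8 and 24.8 against 32.9 and 31.3 CPM. The list's median rests in part on GATAe (log2 -1.44, adjusted p = 0.487), which was nearly absent. It stood at 0.0744 and 0.0591 against 0.261 and 0.111 CPM.

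The genes bnl and Alk, of the FGF and Alk pathways, were called lower. The FGF ligand gene bnl (arm 3R) stood at 2.71 and 3.84 CPM in homozygotes and 11.5 and 9.96 CPM in heterozygotes (log2 -1.70, adjusted p = 0.000224), 1 call among the 9 tested members of its list, where ths and pyr, the other FGF ligand genes, did not pass. The receptor gene Alk (arm 2R, 16625293 to 16640011) stood at 2.23 and 4.10 against 13.1 and 10.4 CPM (log2 -1.86, SE 0.235, adjusted p = 0.00156). The ligand gene of Alk, jeb, stood at 0.855 and 1.03 against 1.86 and 1.38 CPM (adjusted p = 0.285). The gene gprs lies 1232 bases from Alk and, named after its values were seen, stood at 0.149 and 0.207 against 1.42 and 1.69 CPM (log2 -3.08, adjusted p = 0.000378).

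No member of the EGF receptor pathway was called, with 12 tested and 5 at an unadjusted p under 0.05 (background 12.3%). The ETS factor gene pnt, which acts downstream of the receptor, stood at 23.2 and 31.0 against 42.1 and 42.8 CPM (log2 -0.65, adjusted p = 0.0531). The feedback inhibitor gene kek1 stood at 11.9 and 11.8 against 31.7 and 26.5 CPM (log2 -1.30, adjusted p = 0.0813). A secreted inhibitor gene, aos, stood at 30.9 and 39.0 against 46.0 and 47.0 CPM (adjusted p = 0.114). In each of these 3 the homozygous libraries lay below the heterozygous ones. DESeq2 called 5 members of the list, limma-voom 1, the fit without homozygous replicate 2 called 6 and the fits without each other library none. The receptor gene Egfr and the ligand gene spi had differences of 0.00 and -0.01. Beside them kek2, a family member of kek1 named after its values were seen, fell from 7.86 and 6.53 to 1.41 and 2.21 CPM (log2 -1.97, adjusted p = 0.00115).

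In the TNF and JNK list no member of 13 was called, with 3 at an unadjusted p under 0.05 (kay, Tak1 and egr), 1 by DESeq2 and none by limma-voom. The AP-1 gene kay stood at 6.43 and 5.02 against 8.12 and 8.52 CPM (log2 -0.55, adjusted p = 0.194), and puc, a JNK phosphatase gene, at 11.3 and 11.3 against 10.01 and 9.80 CPM. None of 7 tested JAK/STAT members was called by edgeR, with 2 at an unadjusted p under 0.05 and 1 called by DESeq2. That was Stat92E, at 243 and 258 against 317 and 299 CPM (edgeR adjusted p = 0.097).

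**Figure D3:**
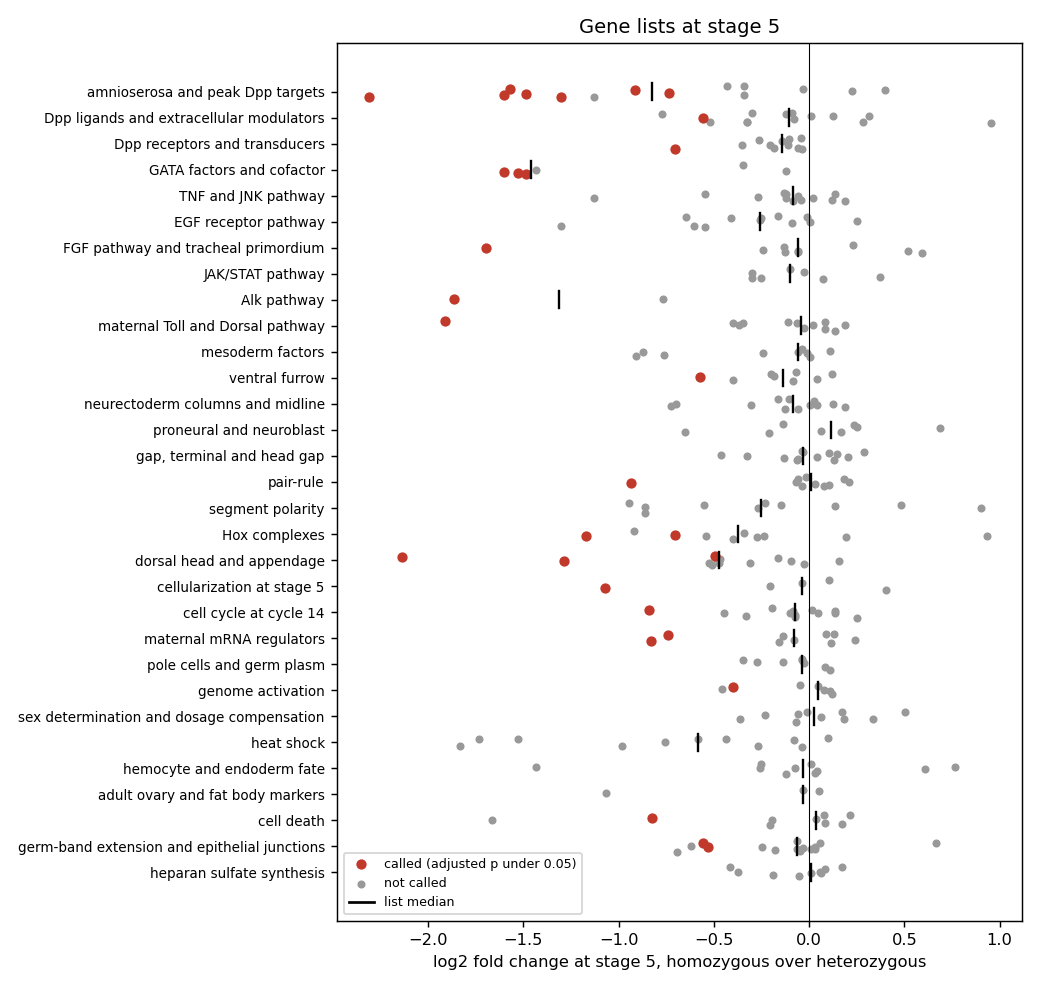
Log2 fold change at stage 5 (homozygous over heterozygous) of each tested member of the 31 gene lists, with called genes in red, other genes in grey and the list median as a black bar. The medians of the GATA, Alk and amnioserosa lists (-1.46, -1.32 and -0.82) are the lowest, and no list has a member called higher. The GATA list has 6 members, of which ush and pnr are also on the amnioserosa list, and the Alk list has 2.

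Regulators of the dorsal head and the appendages included some of the deepest falls. Of 13 tested members, 3 fell and none rose, with a median of -0.47. The Six-family homeobox gene so stood at 0.558 and 1.65 CPM in homozygotes and 5.45 and 4.71 CPM in heterozygotes (log2 -2.14, SE 0.323, adjusted p = 0.00495). Dll, the homeobox gene of limb primordia, stood at 7.29 and 11.5 against 22.3 and 23.9 CPM (log2 -1.29, adjusted p = 0.0031). Both lie on arm 2R, and both calls held without each single library. The bHLH gene net stood at 56.7 and 65.5 against 82.7 and 89.7 CPM (log2 -0.50, adjusted p = 0.0253), a call lost without each single library but homozygous replicate 2 (adjusted p = 0.0664, 0.0964 and 0.167). The eye gene eya stood at 9.22 and 13.6 against 14.4 and 17.5 CPM, and Optix at 9.44 and 15.2 against 16.3 and 18.4 CPM. In both the homozygous libraries lay below the heterozygous ones, and neither passed (adjusted p = 0.251 and 0.249).

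Along the anterior-posterior axis most patterning genes did not pass. None of 13 gap, terminal and head gap genes was called, with 3 at an unadjusted p under 0.05, 1 call by DESeq2 and a list median of -0.03. Among them hb stood at 194 and 187 against 199 and 218 CPM, gt at 172 and 180 against 163 and 164 CPM, and tll at 101 and 75.7 against 93.0 and 91.6 CPM. D, a Sox gene, had the smallest p, at 163 and 142 against 218 and 203 CPM (log2 -0.46, adjusted p = 0.0866). Pair-rule transcripts were close between the genotypes, with 1 of 10 members lower and a median of 0.01: eve stood at 138 and 123 against 114.8 and 128 CPM and ftz at 314 and 318 against 289 and 310 CPM. The member that fell was the nuclear receptor gene ftz-f1, whose protein is a cofactor of Ftz, at 28.1 and 16.9 against 47.0 and 38.8 CPM (log2 -0.94, adjusted p = 0.0323). This call was lost without heterozygous replicate 1 (adjusted p = 0.222).

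The Hox list had 2 falls among 10 tested genes and a median of -0.37. Dfd stood at 13.3 and 20.02 against 27.2 and 27.3 CPM (log2 -0.71, adjusted p = 0.0405), and bcd, the maternal anterior determinant of the same complex as zen, at 3.75 and 2.04 against 6.76 and 6.14 CPM (log2 -1.17, adjusted p = 0.0481). Neither call held without heterozygous replicate 1 (adjusted p = 0.21 and 0.335) or replicate 2 (0.177 and 0.159), nor did that of Dfd without homozygous replicate 1 (0.114) or that of bcd without homozygous replicate 2 (0.0791). Of these 10 genes, 8 had both homozygous libraries below both heterozygous ones, against 21.2% of all tested genes. Of the 10, 9 lie on chromosome 3, along which the genotypes differ. Antp stood at 24.7 and 33.7 against 40.8 and 36.6 CPM, and Ubx at 6.542 and 6.94 against 6.35 and 5.45 CPM, neither passing.

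Ventral and lateral fates showed few differences. No mesoderm factor of 9 was called, with 2 at an unadjusted p under 0.05, none by DESeq2 and 3 without homozygous replicate 2. The mesoderm determinants twi and sna stood at 316 and 310 against 322 and 322 CPM and at 236 and 200 against 229 and 205 CPM, and neither passed. None of 12 genes of the neurectoderm columns and midline was called, with none at an unadjusted p under 0.05, none by DESeq2 and 5 without homozygous replicate 2. The homeobox gene vnd stood at 57.5 and 63.2 against 58.4 and 62.1 CPM. None of 8 tested proneural and neuroblast genes was called, with 1 at an unadjusted p under 0.05 (scrt) and none by DESeq2. Of 8 tested ventral furrow genes 1 fell, T48, an apical membrane protein gene, at 21.3 and 26.2 against 34.1 and 36.8 CPM (log2 -0.57, adjusted p = 0.0255). It was not called without homozygous replicate 1 (adjusted p = 0.0786) or without heterozygous replicate 1 or 2 (0.102 and 0.165). Of 12 members of the maternal Toll and Dorsal list, 1 fell, pip, a sulfotransferase gene that acts in the follicle cells of the mother, at 0.558 and 0.266 against 1.51 and 1.52 CPM (adjusted p = 0.0477). Only the fit without homozygous replicate 1, of those without a stage 5 library, called pip as well.

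A set of genes was lowest by far in homozygous replicate 1. Across all tested genes, 12 were at least 2-fold lower there than in each of the other stage 5 libraries and at 5 CPM or more in those, against 5, 0 and 2 for homozygous replicate 2, heterozygous replicate 1 and heterozygous replicate 2. In 10 of the 12, all but gsb and Toll-6, replicate 2 also lay below both heterozygous libraries. The 12 were picked by a low replicate 1, so the 21.2% of all tested genes is no background for this count. Of the 12, 9 belong to the lists: en and gsb of the segment polarity genes, zfh1 and tin of the mesoderm factors, mid, Dr, sim, Toll-6 and dally. The remaining ones were ham, CadN and Ten-a. The segment polarity gene en stood at 3.38 and 12 CPM in homozygotes and 17.5 and 12.8 CPM in heterozygotes. The zinc-finger homeobox gene zfh1 stood at 11.1 and 26.7 against 39.5 and 32.2 CPM, and the T-box gene mid at 8.48 and 22.1 against 32.8 and 23.4 CPM. In these 3 genes homozygous replicate 2 lay nearer to the heterozygotes but below both of them, and none was called (adjusted p = 0.563, 0.483 and 0.529). Of the 10 segment polarity genes none was called (1 at an unadjusted p under 0.05, none by DESeq2), but 6 were in the fit without homozygous replicate 2, where replicate 1 stands for the homozygotes.

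Genes that increase with stage were lower in homozygotes, most in the same library. In heterozygotes 62 tested genes with at least 5 CPM at stage 6-7 were at least 4-fold higher there than at stage 5. The median log2 difference of homozygotes from heterozygotes over these 62 was -0.5, with 3 called lower and none higher. Against the heterozygous mean the median was -0.84 in homozygous replicate 1 and -0.22 in replicate 2, and 50 and 46 of the 62 lay below it. Of all 9360 tested genes, 4814 and 4580 lay below it in these 2 libraries. Homozygous replicate 1 lay below replicate 2 in 53 of the 62, with a median log2 difference of -0.63. Heterozygous replicate 1 lay below its replicate 2 in 21, with a median of 0.15. Over all 9360 tested genes these counts were 4701 in homozygotes and 4528 in heterozygotes. In the 193 genes that were at least 4-fold lower in heterozygotes at stage 6-7, homozygous replicate 1 lay below replicate 2 in 30 (median 0.26). Heterozygous replicate 1 lay below its replicate 2 in a similar number of the same genes, 32 (median 0.16). Against the heterozygous mean the medians of the 193 were 0.0 in homozygous replicate 1 and -0.24 in replicate 2, and 96 and 163 lay below it. Over the 14 amnioserosa genes the medians against the heterozygous mean were -0.72 in replicate 1 and -0.8 in replicate 2, and replicate 1 was below replicate 2 in 5 of 14. One of them, pnr, met the 4-fold limit and is among the 62 genes, and it was lower in replicate 1. Others rose with stage in heterozygotes by less than 4-fold. Mean levels at stage 5 and stage 6-7 were 4.13 and 15.7 CPM for C15, 46.9 and 117 CPM for peb, and 93.9 and 205 CPM for ush. The opposite held for zen (109 and 49.6 CPM), Kr (207 and 130 CPM) and egr (183 and 93.0 CPM). Of the 193 genes, 14 were called lower and 3 higher, beside 1.34% and 0.288% of all tested genes. Both sets were chosen by heterozygous levels at stage 5, which also enter the difference between genotypes. Their counts and medians are therefore not independent of that choice. The part of stage in the differences between the genotypes was not tested.

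**Figure D4:**
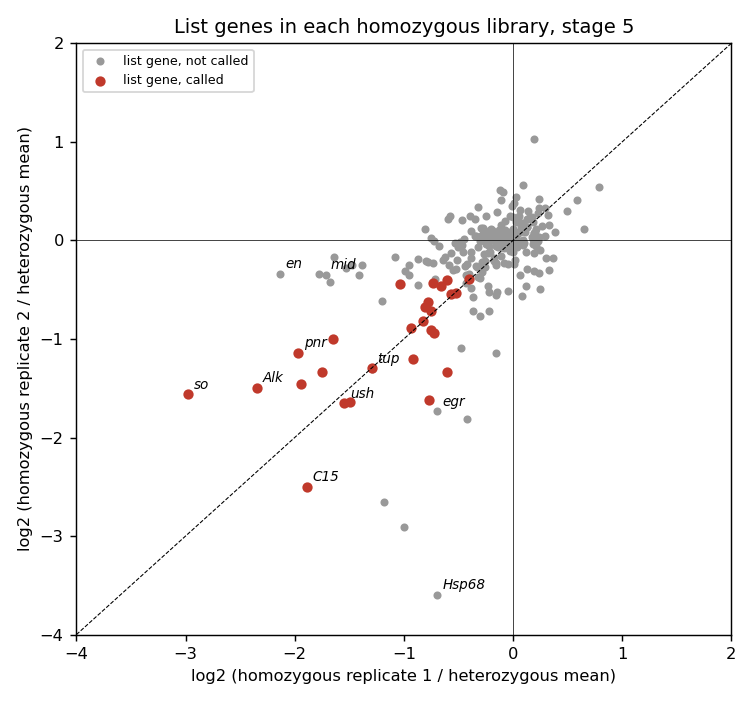
Log2 ratio of each homozygous stage 5 library to the mean of the heterozygous libraries (replicate 1 on the x axis, replicate 2 on the y axis, pseudocount 0.1 CPM) for the 257 list genes with a heterozygous mean of at least 2 CPM. Called genes (red) are below 0 in both libraries, en and mid are low mainly in replicate 1, and Hsp68 mainly in replicate 2; the dashed line marks equal ratios.

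Genes of the blastoderm's cell biology were at similar levels with a few exceptions. Of 5 tested cellularization genes, 1 fell: nullo, needed for stable furrow canals, at 4.83 and 3.96 against 10.7 and 7.78 CPM (log2 -1.07, adjusted p = 0.0287). It was not called without heterozygous replicate 1 (adjusted p = 0.389). The gene halo, a regulator of lipid droplet transport, stood at 565 and 389 against 390 and 330 CPM and did not pass (adjusted p = 0.355). The 0 counts of Sry-alpha in every library are not read as a level of its RNA. Of 13 cell cycle genes, 1 fell, the Cdk inhibitor gene dap, at 5.32 and 4.58 against 10.1 and 7.61 CPM (log2 -0.84, adjusted p = 0.0294), again not without heterozygous replicate 1 (adjusted p = 0.329). The mitotic phosphatase gene stg stood at 38.6 and 59.1 against 69.1 and 54.2 CPM, with overlapping genotypes, and CycB at 862 and 974 against 980 and 954 CPM.

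Of 15 tested genes of germ-band extension and epithelial junctions, 2 fell. The afadin gene cno stood at 341 and 390 against 521 and 554 CPM (log2 -0.56, SE 0.0898, adjusted p = 0.00495), and baz, the fly Par-3, at 152 and 151 against 189 and 249 CPM (log2 -0.53, adjusted p = 0.0405). Neither was called without heterozygous replicate 2 (adjusted p = 0.0728 and 0.332), nor baz without homozygous replicate 1 (0.14). The junction genes shg, arm and alpha-Cat had differences of -0.03 to 0.06 that did not pass. In the cell death list 1 of 9 fell, hid, which promotes apoptosis, at 17.3 and 17.4 against 29.3 and 32.2 CPM (log2 -0.82, adjusted p = 0.00647, and 0.0572 without heterozygous replicate 2), while rpr stood at 8.29 and 10.8 against 9.60 and 6.92 CPM.

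Of 9 tested maternal RNA regulators, 2 fell, both on chromosome 3, along which the genotypes differ. The gene smg, whose protein marks maternal transcripts for decay, stood at 132 and 145 CPM in homozygotes and 251 and 212 CPM in heterozygotes (log2 -0.74, SE 0.103, adjusted p = 0.0017). The gene pum, a translational repressor, stood at 113 and 101 against 206 and 174 CPM (log2 -0.83, adjusted p = 0.00323, and 0.068 without heterozygous replicate 1). The other members did not pass, and me31B and tral differed by 0.11 and -0.14. BicC and cup held 0 counts in every library, and the annotation places CG45084 and CG34310 over the same intervals on the same strand, so their reads could be counted to neither. Of 7 genome activation factors, Clamp fell (137 and 139 against 186 and 178 CPM, log2 -0.40, adjusted p = 0.0353), not without any 1 stage 5 library but homozygous replicate 2 (0.0553 to 0.328). The pioneer factor gene zld stood at 519 and 732 against 834 and 885 CPM (adjusted p = 0.14).

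None of 10 tested sex determination and dosage compensation genes was called, with 2 at an unadjusted p under 0.05 and 1 by DESeq2. The X-linked counting gene sisA stood at 96.2 and 85.2 against 58.0 and 69.9 CPM (log2 0.50, adjusted p = 0.0631). Sxl, on which female development rests, varied within both genotypes, at 606 and 871 against 479 and 829 CPM. None of 11 tested heat shock genes was called, with 1 at an unadjusted p under 0.05 and none by DESeq2, although 8 of them had both homozygous libraries below both heterozygous ones (background 21.2%) and the list's median was -0.58. Of these 11 genes, 10 lie on chromosome 3, along which the genotypes differ. Members of this list also moved together between replicates, so the 8 are not separate observations to set against that background. Among the 8, Hsp70Aa stood at 1.295 and 14.46 CPM in the stage 6-7 heterozygotes, and Hsp70Ab at 1.736 and 17.91 CPM. Hsp68, also among the 8, had an SE of 1.38 at stage 5. Heparan sulfate synthesis had no call among 9 genes (2 at an unadjusted p under 0.05, 1 by DESeq2), and hemocyte and endoderm fate genes none among 10 (1, and none by DESeq2).

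Among all called genes, list members included, the deepest falls at 5 CPM or more were those of Alk, S-Lap1, mthl8, an ID with no symbol in the annotation used (FBgn0029082), bnl, cry, ush, peb, grn, pnr, CG13653, Fhos, tup, Dll and Sarm, from -1.86 to -1.21. FBgn0029082 had the smallest p of all genes and stood at 8.96 and 8.80 against 29.0 and 32.7 CPM (adjusted p = 2.61e-06). The methuselah-like receptor gene mthl8 (arm 3L) stood at 10.4 and 6.50 against 28.3 and 30.8 CPM, and the cryptochrome gene cry (arm 3R) at 10.8 and 6.61 against 26.3 and 27.8 CPM. The formin gene Fhos stood at 7.32 and 6.20 against 20.2 and 14.2 CPM, and its call was lost without heterozygous replicate 1 (adjusted p = 0.068). Fhos overlaps CG6576 and Acbp5, cry overlaps lncRNA:CR46393 and vib, and ush overlaps lncRNA:CR46258, cbt and lncRNA:CR46259, so reads of these pairs may be mixed.

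S-Lap8, a leucyl aminopeptidase gene named after its values were seen, had 0 counts in both homozygous libraries and 14 and 13 in the heterozygous ones. Against a floor of 3 counts per library (0.112 CPM) it was at least 3.43-fold lower. Without it, the largest absolute log2 of a lower gene was 3.16. That bound covers counting error only, and the call of S-Lap8 was lost without any single stage 5 library (adjusted p = 0.0585 to 0.21).

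Off chromosome 3, 50 genes fell and 4 rose among 5142 tested. Of genes meeting the criteria for size and separation, the 10 smallest p-values among the falls belonged to ush, peb, tup, Ance, Alk, fra, Dll, CG14764, Tdg and side-V. The netrin receptor gene fra stood at 192 and 212 against 306 and 333 CPM (log2 -0.66, adjusted p = 0.00175). Tdg, a thymine DNA glycosylase gene on the fourth chromosome, stood at 29.0 and 27.2 against 52.0 and 44.4 CPM (adjusted p = 0.00382) and overlaps zfh2 on the other strand, which was called lower as well. The immunoglobulin-family gene side-V, which lies antisense to CG13539, stood at 18.5 and 25.3 against 42.6 and 43.7 CPM (adjusted p = 0.00415). CG14764 stood at 39.9 and 34.0 against 81.7 and 62.2 CPM. The calls of Tdg and CG14764 were lost without heterozygous replicate 1 (adjusted p = 0.0826 and 0.0598).

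Of the 4 rises off chromosome 3, fok (arm 2L) was the steepest. It stood at 20 and 24.2 CPM in homozygotes and 8.76 and 5.45 CPM in heterozygotes (log2 1.64, SE 0.214, adjusted p = 0.00166), and lies antisense to neb. Atx-1, the fly ataxin 1 homologue, stood at 143 and 203 against 95.7 and 118 CPM (adjusted p = 0.0477) and lost its call in 7 of the alternatives, among them the fit without heterozygous replicate 1 (0.35). CG8860 stood at 21.9 and 22.6 against 15.3 and 15.4 CPM (adjusted p = 0.0294, and 0.219 and 0.211 without heterozygous replicate 1 and 2). The immune gene Tep2, named after its values were seen, stood at 3.35 and 3.57 against 1.74 and 1.58 CPM (adjusted p = 0.0287). Its call held without homozygous replicate 2, and was lost without homozygous replicate 1 (adjusted p = 0.0619) or heterozygous replicate 1 or 2 (0.142 and 0.231).

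On chromosome 3, 22 genes rose and 70 fell among 4045 tested, a share of 2.27% called against 1.05% off it. By arm the share was 2.05% on 3L and 2.46% on 3R, 1.11% on 2L, 1.18% on 2R and 0.712% on X. It was higher on the small chromosome 4 (3.45% of 87 tested genes) and among IDs not in the annotation (3.47% of 173). The quartiles of all genes on chromosome 3 were -0.17 and 0.15, and off it -0.15 and 0.14. Balancer and zen[7] chromosomes differ in sequence and arrangement, and their part in a difference on chromosome 3 cannot be told apart from that of zen.

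Most of the rises, 22 of 27, were on chromosome 3. Ac78C (FBgn0024150, arm 3L), an adenylyl cyclase gene, had the smallest p of them and stood at 262 and 293 against 100.4 and 82.6 CPM (log2 1.60, SE 0.105, adjusted p = 2.61e-06). The acetylcholine receptor subunit gene nAChRbeta2 stood at 36.2 and 41.8 against 17.6 and 12.7 CPM (log2 1.37, adjusted p = 0.000153), and geko at 101 and 107 against 59.9 and 53.4 CPM (log2 0.88, adjusted p = 0.00166). The kinetochore gene Mis12 stood at 6.62 and 7.20 against 3.77 and 3.46 CPM. The calls of geko and Mis12 were lost without heterozygous replicate 2 (adjusted p = 0.077 and 0.0968).

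Several called genes were neighbours changed the same way. Only genes called in the same direction and within 10 kb of each other were sought, and the number of such pairs to be expected was not computed. A run of 4 on arm 3R, from 14566432 to 14569871 on BDGP6.54, rose: CG31313, CG8066, asRNA:CR44095 and Cys. CG8066 stood at 180 and 209 against 74.1 and 65.8 CPM (log2 1.48, adjusted p = 0.00113), asRNA:CR44095 at 14.7 and 20.7 against 6.18 and 5.65 CPM (log2 1.58), and CG31313 at 13.2 and 11 against 8.12 and 5.67 CPM (log2 0.81, adjusted p = 0.0413, and 0.204 and 0.365 without homozygous replicate 1 and heterozygous replicate 2). Cys and asRNA:CR44095 overlap on opposite strands and cannot be separated without knowing whether counting used strand. DZIP1 follows nAChRbeta2 after 172 bases (24509228 to 24518128) and stood at 17.1 and 25.8 against 9.78 and 8.03 CPM (log2 1.27, adjusted p = 0.00244, and 0.0607 without heterozygous replicate 2). CG13711 lies inside RhoGEF64C on the same strand, and both rose by 1.20. Among the falls, lobo, CG13653 and CG13654 were neighbours on 3R, as were jar, Orct2 and Orct, CG4367 and CG4362, and, off chromosome 3, Alk and gprs.

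Many of the 152 genes differed in the same direction at stage 6-7. The stage 6-7 libraries are separate from the stage 5 ones, though the fit's spread per gene is shared, and the difference between stages was not compared by a test here. At stage 6-7, 1.25% of tested genes were called lower and 0.524% higher. Of the 125 lower genes, 51 were also called lower at stage 6-7 and none higher, and 79 had both homozygous libraries below both heterozygous ones (background 16.2%). Of the 27 higher genes, 11 were called higher, 1 (CG8860) lower, and 23 had both homozygous libraries above (background 20%). The stage 6-7 medians were -0.46 and 0.68.

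Of the 125 lower genes, 37 had a stage 6-7 log2 below -1, 24 of them on chromosome 3. Among these were cry (-1.64 at stage 5 and -3.93 at stage 6-7), mthl8 (-1.82 and -4.27) and C15 (-2.31 and -3.30). At stage 6-7, 5 of the 125 lay above 0.2, among them ftz-f1 (0.44). Another 43 lay within 0.2 of 0 at stage 6-7, 20 of them on chromosome 3. Among these smg differed by -0.74 and then 0.08, pum by -0.83 and -0.05, Clamp by -0.40 and -0.01, tkv by -0.70 and 0.04, and T48 by -0.57 and 0.05. The genes pnr, so and Dll lay between, with -0.60, -0.82 and -0.23 at stage 6-7 and no call there. Of the 50 lower genes off chromosome 3, 14 were called lower at stage 6-7.

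**Figure D5:**
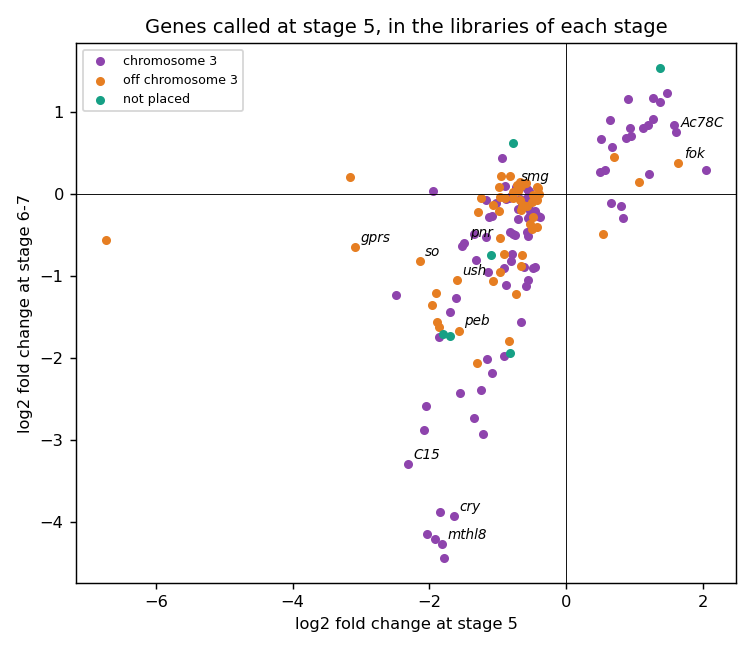
Log2 fold change (homozygous over heterozygous) at stage 5 on the x axis and at stage 6-7 on the y axis for the 152 genes called at stage 5, coloured by chromosome. The genes lower at stage 5 spread at stage 6-7 from above 0 (ftz-f1, 0.44) through values near 0 (smg, 0.08) to below -4 (mthl8, -4.27), and the leftmost point is S-Lap8, whose fitted value depends on its 0 counts.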

How the data were processed

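RNA was sequenced as 100 bp paired reads with 200 bp inserts, per the labels' protocols. For each library the authors deposited 1 table of raw read counts, in whole numbers, with 1 line per gene. STAR and HTSeq are named in the submitters' processing notes without versions, and none of the sources used here gives the genome build, annotation or strand setting. HTSeq summary lines, 12.89% to 15.46% of each stage 5 total, name no gene and were left out. Symbols and positions came from Ensembl 115 (BDGP6.54), where 17188 IDs matched and 280 did not.

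Counts were scaled with TMM, filtered with filterByExpr (minimum count 10) and tested in edgeR 4.0.16 under R 4.3.3 by glmQLFTest after a robust glmQLFit, with 1 mean per group over all 8 libraries, and p-values adjusted over 9360 genes. An SE is the absolute log2 change over the square root of F. Alternatives were RLE factors, no filter, DESeq2 1.42.0, limma-voom (limma 3.58.1), stage 5 libraries alone, a replicate block, genes off chromosome 3 alone and leaving out each stage 5 library, which leaves 1 library in its group, assumed to vary like the others.

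The comparison, the 31 gene lists (311 symbols, of which 301 matched) and the rules were chosen with earlier results of these data known. Named genes were the amnioserosa list, the 15 largest called changes in each direction at a mean of at least 5 CPM with genotypes apart, the 10 smallest p-values per direction off chromosome 3 and up to 3 members of each list. Other genes named in examples were chosen after their values were seen. Nothing in the labels ties pools to separate crosses or collections. The p-values therefore reflect only the spread of these samples, which may be technical. The labels give replicates 1 and 2 in every group without saying that a number marks a shared batch.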

Additional observations from a re-analysis of the deposited data

Results flagged for a closer look

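In 10 genes named or held in the lists, both homozygous libraries lay on one side of both heterozygous ones at stage 5 and on the other side at stage 6-7. The difference was not tested, and such separation at a single stage is common (42.4% of tested genes at stage 5 and 36.2% at stage 6-7). The stage 5 log2 differences of those higher first were 0.54 for CG8860, 0.81 for CG31313, 0.21 for hry and 0.23 for zen2. Those lower first were ftz-f1 at -0.94, sax at -0.26, Sulf1 at -0.37, grim at -1.66, nerfin-1 at -0.65 and Dr at -0.70. Of these, CG8860, CG31313 and ftz-f1 were called at stage 5, and CG8860 alone was also called at stage 6-7, in the other direction.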

How the results depend on the processing

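The count of 152 called genes (27 higher and 125 lower) became 159 with RLE factors, 139 with limma-voom and 136 in the 4 stage 5 libraries alone. It was 397 with no low-count filter (69 higher and 328 lower) and 255 with DESeq2 (220 lower), while genes off chromosome 3 fitted alone gave 33 (1 higher and 32 lower) against 54 of the same genes (4 higher and 50 lower) when all genes were fitted. With the replicate block it was 249, of which 210 were lower. Same-numbered libraries deviated with a correlation of 0.004 at stage 5 and -0.002 at stage 6-7 over all tested genes. Such a correlation cannot show a shared batch that moved only some genes, and whether the numbers mark one was not tested further. Without single stage 5 libraries the count ran from 66 to 805, with 7 to 114 higher and 51 to 691 lower. Of the named genes, 7 changed sign without a single library, and their log2 values then ran from -0.81 to 0.016 for ind, -0.0004 to 0.15 for term, -0.4 to 0.11 for Pxt and -0.22 to 0.35 for Yp3. They ran from -0.02 to 0.44 for pros, -0.053 to 0.35 for run and -0.45 to 0.27 for Cp18. Pxt was 0.041 without homozygous replicate 1, and Yp3 was -0.21 without heterozygous replicate 1. None of the 7 was called with all libraries, ind was called without homozygous replicate 2, and the cause was not tested. With 2 libraries per genotype and a few CPM or less, as in C15, so and pip, the number of reads limits the precision.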
